A study of Mus musculus with 8 samples.

Results

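The DNA replication and S-phase machinery was followed in pancreatic islets of Fzd9 KO/KO;MycER;BclXL mice (Fzd9 KO) and of Fzd9 WT/WT;MycER;BclXL mice (Fzd9 WT), 4 mice of each genotype. The genes were taken from a fixed list of 49 that spans origin licensing, the helicase, the polymerases, the clamp and its loader, Okazaki fragment joining, chromatin assembly and nucleotide supply. Of these, 48 were measured among the 22180 genes that the arrays name, and Rfc4 was left out because its probe set also names a neighbouring gene. Measured values played no part in choosing the list, but it was drawn up with earlier results of these data known.

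Every mouse, in both genotypes, was C57Bl/6 and carried the MycER and BclXL transgenes, and every mouse received tamoxifen i.p. for 3 d. MycER is a Myc protein fused to an estrogen receptor domain that tamoxifen switches on, and BclXL is a survival protein that counters Myc-induced apoptosis. Both transgenes are driven by insulin promoters and so act in β-cells, whereas Fzd9, a Wnt receptor, is missing from the whole animal in the Fzd9 KO mice and not from β-cells alone. The mice were 8 to 12 wk old and of both sexes, and the sex of each mouse was not used here. RNA came from a hand-picked pool of about 20 to 40 islets per mouse according to the methods, while the sample labels name the tissue as insulinoma. No array of untreated mice or of mice without MycER was analysed here, so all values set Fzd9 KO against Fzd9 WT with Myc switched on in both.

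Each mouse was read on 1 Affymetrix Mouse Gene 2.1 ST array, and values are log2 expression levels, so a difference of 1 is a factor of 2. A probe set is the group of probes that reads 1 transcript. For each gene the probe set with the highest mean over all 8 mice was used. Differences are Fzd9 KO minus Fzd9 WT, from limma fitted over all 41345 probe sets. A gene is called lower or higher here when its unadjusted p was under 0.05 and its fold change at least 1.2, which is the threshold that the study set for these arrays, and "fell" is used for such genes only. After Benjamini-Hochberg adjustment over all probe sets, limma left none with an adjusted p under 0.05 (0%, lowest adjusted p 0.095), and every replication gene had an adjusted p of 1.00. All calls below are therefore unadjusted ones.

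Before a cell divides it must copy its genome exactly once. The origin recognition complex (ORC) marks start sites, Cdc6 and Cdt1 load the ring-shaped MCM helicase there, and Cdc45 and the GINS complex turn that helicase on at the start of S phase. Polymerase α-primase lays down primers, polymerases ε and δ extend them while held to DNA by the PCNA clamp, and histones and DNA methylation are restored behind the fork. Most of these genes are textbook targets of E2F transcription factors, many are induced when Myc drives resting cells into the cycle, and adult β-cells rarely replicate.

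Of the 48 replication genes, 3 fell in Fzd9 KO islets, none was called higher and 45 were not called. The 3 were Mcm5, a subunit of the replicative helicase, Rfc5, a subunit of the clamp loader, and Chaf1b, a subunit of the histone chaperone that assembles nucleosomes on new DNA. They make up 6.25% of the 48, against 1.17% of all genes called lower and 1.28% called higher. With limma, no replication gene had an unadjusted p under 0.05 and a positive difference. Among genes above the array-wide median level, as 43 of the 48 were, 1.73% were called lower and 0.618% higher. Each call was lost in some fits with 1 mouse left out, in 2 of 8 for Mcm5, 4 of 8 for Rfc5 and 5 of 8 for Chaf1b. No gene was called without WT mouse 4, Rfc5 alone was called lower without WT mouse 2, and without KO mouse 3 Mcm5 alone was called lower while Mcm10 was called higher.

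Across the set, the difference was negative for 36 of 48 genes and positive for 12. The median log2 fold change was −0.13, and the values ran from −0.67 to 0.60. Over all genes 50.0% were negative and the median was −0.00, and over the genes above the median level 57.6% were negative with a median of −0.05. The median of the replication genes was −0.10 after quantile normalization, −0.16 after centring each array on its median and −0.09 after cyclic loess. A single fold change had a standard error of 0.18 to 0.50 (median 0.24), and 27 of the 48 differences were smaller than their own standard error. The replication genes share mice and often vary together, and 75% with a negative sign is a description of these 8 arrays.

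**Figure D1:**
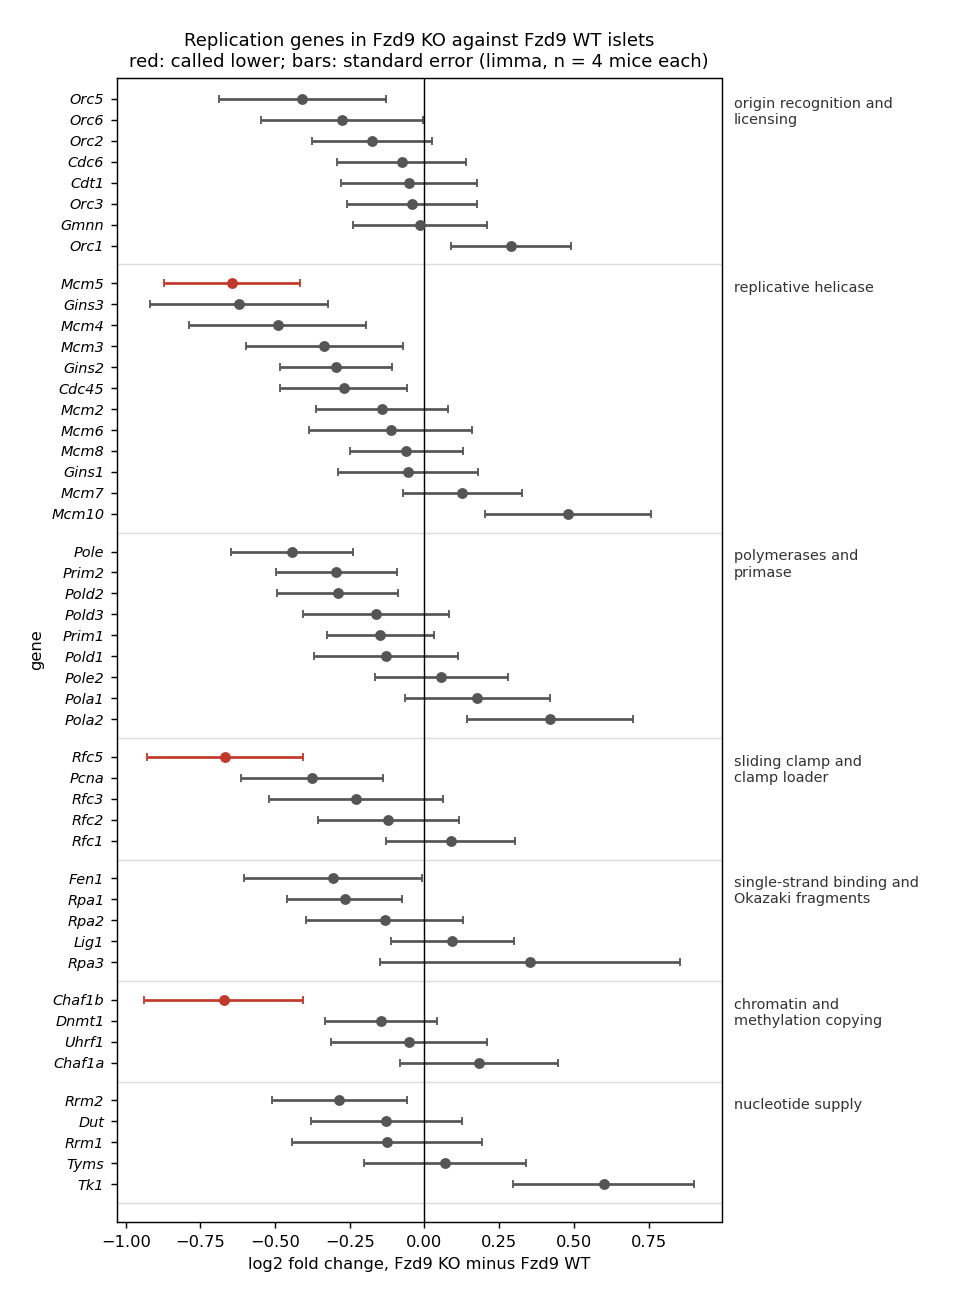
Log2 fold change (x axis, Fzd9 KO minus Fzd9 WT) of the 48 replication genes (y axis, by role). Points are limma estimates from 4 mice of each genotype and bars are standard errors, and the 3 genes called lower are red. Most points lie left of 0, with Tk1 at 0.60 the farthest to the right.

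Mcm5, which the study also followed by other methods, had levels of 4.70, 5.08, 4.63 and 4.73 in Fzd9 KO mice 1 to 4, against 5.17, 5.73, 5.07 and 5.74 in Fzd9 WT mice 1 to 4. The Fzd9 KO values were tightly placed, and only KO mouse 2 reached the level of the lowest Fzd9 WT mouse. Mcm5 was 1.56-fold lower in Fzd9 KO islets (log2 fold change −0.64, standard error 0.23, 95% interval −1.15 to −0.13, limma unadjusted p = 0.0186). Leaving out WT mouse 2 (−0.54) or WT mouse 4 (−0.54) ended the call.

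Rfc5 had levels of 4.09, 4.88, 4.24 and 4.95 in Fzd9 KO mice, against 4.97, 5.01, 5.57 and 5.29 in Fzd9 WT mice. It was the only replication gene whose genotypes did not overlap. All Fzd9 KO mice lay below all Fzd9 WT mice for 1.11% of all genes and above them for 1.25%. The gap was narrow, because KO mice 2 and 4 lay just under the lowest Fzd9 WT mouse while KO mice 1 and 3 lay well below. Rfc5 was 1.59-fold lower in Fzd9 KO islets (log2 fold change −0.67, standard error 0.26, 95% interval −1.25 to −0.09, limma unadjusted p = 0.0284). Its call was lost without KO mouse 1 (−0.52), KO mouse 3 (−0.57), WT mouse 3 (−0.55) or WT mouse 4 (−0.64).

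Chaf1b had levels of 3.31, 3.42, 2.92 and 2.80 in Fzd9 KO mice, against 3.81, 4.03, 3.15 and 4.15 in Fzd9 WT mice. WT mouse 3 lay among the Fzd9 KO mice and the other Fzd9 WT mice lay above them. Chaf1b was 1.59-fold lower in Fzd9 KO islets (log2 fold change −0.67, standard error 0.27, 95% interval −1.27 to −0.08, limma unadjusted p = 0.0304). It was also dim. As a gauge of background, the 95th percentile of 1405 probe sets for olfactory and vomeronasal receptors, which work mainly in the nose, was 3.68 in Fzd9 KO and 3.46 in Fzd9 WT islets, and the Fzd9 KO mean of Chaf1b, 3.11, lay below it. The call did not hold without KO mouse 3 (−0.61), KO mouse 4 (−0.57), WT mouse 1 (−0.66), WT mouse 2 (−0.59) or WT mouse 4 (−0.55). Of the 48 genes, 33 were above this gauge in both genotypes. The gauge is taken from genotype means, and in single arrays that percentile ran from 3.14 in WT mouse 1 to 4.57 in KO mouse 1.

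**Figure D2:**
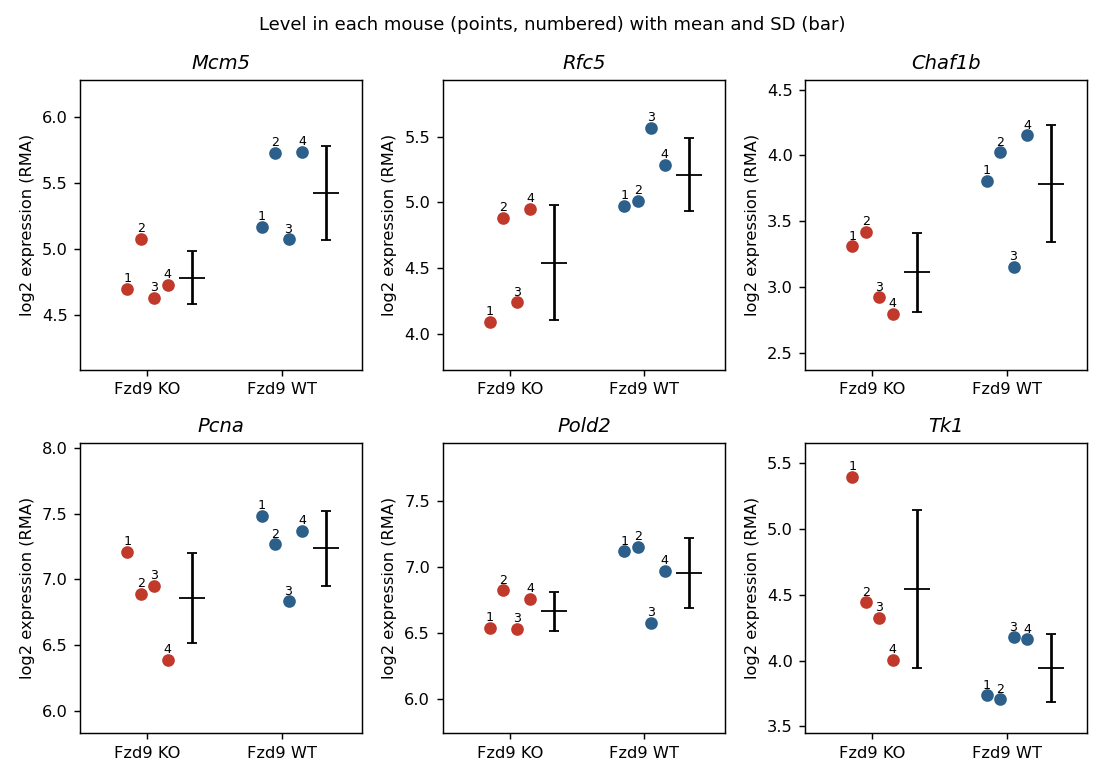
Log2 level (y axis) of Mcm5, Rfc5, Chaf1b, Pcna, Pold2 and Tk1 in each mouse, Fzd9 KO on the left and Fzd9 WT on the right of each panel. Points are mice with their numbers and bars are mean ± SD (n = 4 each). The genotypes are apart only for Rfc5, and the Tk1 mean of Fzd9 KO is raised by KO mouse 1 at 5.40.

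**Figure D3:**
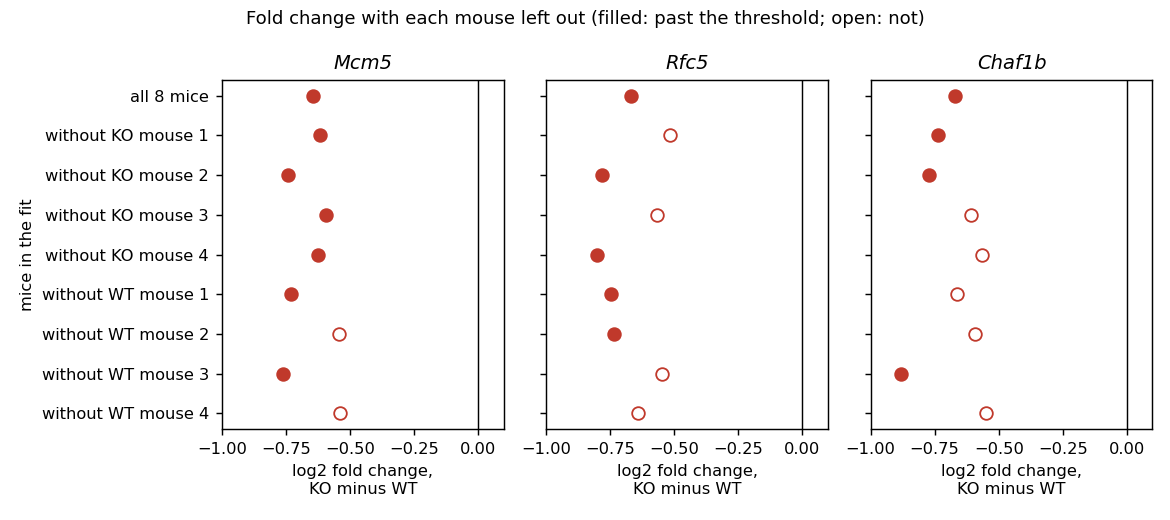
Log2 fold change (x axis, Fzd9 KO minus Fzd9 WT) of Mcm5, Rfc5 and Chaf1b with all 8 mice and without each mouse in turn (y axis). Filled points met the threshold for a call and open points did not. All points are negative, and without WT mouse 4 none is filled.

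The promoters of the 3 genes that fell are shown with that of Mcm6, another helicase subunit that was not called (−0.11, standard error 0.27), to show how the start regions of these genes differ in E2F motifs. The sequences are RefSeq windows on GRCm38.p6, from 250 bases before to 50 bases after the annotated start, and they are written on the strand of the gene. Capitals mark the E2F letters TTTCGCGC, TTTGGCGC or TTTCCCGC on either strand, and overlapping matches form 1 run. The windows are chr8:75109259-75109558 (plus strand) for Mcm5, chr1:128359656-128359955 (minus strand) for Mcm6, chr5:117388974-117389273 (minus strand) for Rfc5 and chr16:93883651-93883950 (plus strand) for Chaf1b.
Mcm5: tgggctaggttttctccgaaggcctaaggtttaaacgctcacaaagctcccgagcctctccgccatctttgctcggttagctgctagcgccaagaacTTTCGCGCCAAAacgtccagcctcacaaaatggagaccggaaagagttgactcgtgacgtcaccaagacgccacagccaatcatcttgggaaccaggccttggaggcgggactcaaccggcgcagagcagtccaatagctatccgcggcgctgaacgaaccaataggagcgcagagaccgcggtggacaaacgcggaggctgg
Mcm6: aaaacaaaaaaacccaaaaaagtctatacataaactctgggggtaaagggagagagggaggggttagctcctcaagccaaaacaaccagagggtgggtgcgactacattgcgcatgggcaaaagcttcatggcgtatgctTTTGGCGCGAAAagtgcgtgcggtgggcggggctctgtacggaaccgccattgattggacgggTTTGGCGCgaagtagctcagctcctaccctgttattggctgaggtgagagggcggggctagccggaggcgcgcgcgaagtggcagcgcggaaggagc
Rfc5: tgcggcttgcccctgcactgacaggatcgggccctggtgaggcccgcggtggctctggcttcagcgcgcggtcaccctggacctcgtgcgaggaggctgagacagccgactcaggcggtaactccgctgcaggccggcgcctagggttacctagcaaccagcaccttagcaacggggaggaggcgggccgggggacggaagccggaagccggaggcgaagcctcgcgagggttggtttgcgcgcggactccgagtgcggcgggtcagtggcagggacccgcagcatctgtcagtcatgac
Chaf1b: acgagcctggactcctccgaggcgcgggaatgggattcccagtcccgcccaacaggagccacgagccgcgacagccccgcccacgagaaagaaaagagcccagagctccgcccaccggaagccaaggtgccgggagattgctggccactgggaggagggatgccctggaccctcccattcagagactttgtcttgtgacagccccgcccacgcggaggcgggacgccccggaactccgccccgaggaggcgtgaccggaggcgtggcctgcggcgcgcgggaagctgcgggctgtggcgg

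Mcm5 held 2 overlapping matches, TTTCGCGC on the gene's strand and TTTGGCGC on the other, with their first bases at −153 and −149 from the start site. Mcm6 held 3 matches, and Rfc5 and Chaf1b held none in these windows. Promoter windows were found for 41 of the 48 genes (50 windows, since some genes have several starts). The E2F letters were in 36% of these windows, against 1.85% of the 32851 windows of all genes, and 18 of the 41 genes had them. The E-box CACGTG, the core letters bound by Myc and related factors, was in 16% of the windows, against 7.15% of all, and 8 of the 41 genes had it. The 18 genes with E2F letters had a median log2 fold change of −0.07 with 1 called lower, and the 23 without had −0.15 with 2 called lower. The 8 genes with an E-box had a median of 0.08 with none called, and the 33 without had −0.14 with 3 called lower. A match is a run of letters and not a measured binding site, and these groups were not tested against each other.

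Origin recognition and licensing genes gave no call. Of the 8 measured, 7 were negative and the median was −0.06. Orc5, a subunit of ORC, had the largest difference, with levels of 3.31, 3.81, 4.17 and 4.28 in Fzd9 KO mice, against 4.54, 4.69, 3.85 and 4.13 in Fzd9 WT mice. The genotypes overlapped, and the Fzd9 KO mean was pulled down by KO mouse 1 (log2 fold change −0.41, standard error 0.28, limma unadjusted p = 0.175). Without that mouse it was −0.22. Gmnn, which encodes the licensing inhibitor geminin that holds Cdt1 in check, had the smallest difference, with 3.89, 3.70, 3.92 and 4.20 in Fzd9 KO mice, against 4.11, 3.44, 4.07 and 4.14 in Fzd9 WT mice (−0.01, standard error 0.22). The loaders were also near 0, at −0.08 for Cdc6 and −0.05 for Cdt1, both with a standard error of 0.22 or 0.23. Among the other subunits of ORC, Orc6 was at −0.28, Orc2 at −0.18 and Orc3 at −0.04, while Orc1 was at 0.29 at a level below the background gauge.

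The replicative helicase group, 12 genes, had 10 negative values, 1 call (Mcm5) and a median of −0.21. The 6 subunits of the MCM ring did not move alike. Next to Mcm5 at −0.64, Mcm4 was at −0.49 (standard error 0.30), Mcm3 at −0.34 (0.26), Mcm2 at −0.14 (0.22), Mcm6 at −0.11 (0.27) and Mcm7 at 0.13 (0.20), and none but Mcm5 was called. Mcm4 had levels of 4.23, 4.41, 4.65 and 3.98 in Fzd9 KO mice, against 5.16, 4.96, 3.97 and 5.14 in Fzd9 WT mice, so that WT mouse 3 alone broke the separation. Without WT mouse 3 its log2 fold change was −0.77 and it was called lower, as it was with array weights (−0.61). The activators of the ring were Cdc45 at −0.27, Gins1 at −0.05, Gins2 at −0.30 and Gins3 at −0.62 (standard error 0.30), where Gins3 rested on KO mouse 3 at 2.00 beside 2.97 to 3.31 in the other Fzd9 KO mice. Gins3 was called lower without KO mouse 2 (−0.76) or KO mouse 4 (−0.75). It was also called lower when only probe sets with 1 gene symbol, or each gene's mean over its probe sets, were fitted. Gins1 had the smallest difference of the group, with 2.49, 2.72, 2.39 and 2.46 in Fzd9 KO mice, against 2.52, 2.37, 2.24 and 3.15 in Fzd9 WT mice, all at background level. Mcm10, which helps start the active helicase, went the other way at 0.48 (standard error 0.28), and it was at 0.30 without KO mouse 1 and at 0.70, called higher, without KO mouse 3. Mcm8, a relative of the ring subunits that acts in repair, was at −0.06.

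The polymerases and primase, 9 genes, had 6 negative values, no call and a median of −0.15. Pole, the catalytic subunit of the leading-strand polymerase ε, had levels of 3.62, 3.31, 3.44 and 3.56 in Fzd9 KO mice, against 3.51, 3.98, 4.12 and 4.08 in Fzd9 WT mice. WT mouse 1 lay among the Fzd9 KO mice, which otherwise lay below Fzd9 WT, and the difference stood just outside the threshold (−0.44, standard error 0.20, limma unadjusted p = 0.0563). Pole was called lower after quantile normalization (−0.45) or median centring (−0.48) and without WT mouse 1 (−0.58). Its Fzd9 KO mean was below the background gauge. The other Pole probe set gave 0.08 (standard error 0.25), and Pole was not called with the mean of its probe sets. Pole2, the small subunit that partners it, had the smallest difference, with 2.75, 2.35, 2.35 and 2.31 in Fzd9 KO mice, against 2.87, 2.29, 2.16 and 2.21 in Fzd9 WT mice (0.06, standard error 0.22).

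Pold2, an accessory subunit of the lagging-strand polymerase δ, is among the genes that the study measured by another method. Its levels were 6.54, 6.82, 6.53 and 6.76 in Fzd9 KO mice, against 7.12, 7.15, 6.58 and 6.97 in Fzd9 WT mice. All Fzd9 WT mice but WT mouse 3 lay above all Fzd9 KO mice. The log2 fold change was −0.29 (standard error 0.20, limma unadjusted p = 0.181) and the 95% interval, −0.74 to 0.16, runs from 1.67-fold lower to 1.12-fold higher. The other subunits of polymerase δ were at −0.13 (Pold1) and −0.16 (Pold3). In the polymerase α-primase complex the primase subunits were negative (Prim1 −0.15, Prim2 −0.30) and the polymerase subunits positive (Pola1 0.18, Pola2 0.42), none past the threshold. Pola2 was at 0.23 without KO mouse 1.

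The sliding clamp and clamp loader group, 5 genes, had 4 negative values, 1 call (Rfc5) and a median of −0.23. The mean level over the 5 genes was 4.86 to 4.95 in Fzd9 KO mice and 4.97 to 5.31 in Fzd9 WT mice. It was the only one of the 7 roles in which these ranges did not overlap, by a narrow gap. This mean includes Rfc5, whose own genotypes did not overlap, and a mean without Rfc5 was not taken. Pcna, the ring that tethers polymerases to DNA and a usual marker of S phase, had levels of 7.21, 6.89, 6.95 and 6.39 in Fzd9 KO mice, against 7.48, 7.27, 6.83 and 7.37 in Fzd9 WT mice. As for Pold2, WT mouse 3 was the Fzd9 WT mouse that lay among the Fzd9 KO mice. The log2 fold change of −0.38 was not past the threshold (standard error 0.24, 95% interval −0.91 to 0.16, limma unadjusted p = 0.146), and that interval reaches a level 1.88-fold lower. Without KO mouse 4 the Pcna difference was −0.22. Rfc1, the large loader subunit, had 5.21, 4.87, 5.64 and 5.25 in Fzd9 KO mice, against 5.21, 4.92, 5.38 and 5.11 in Fzd9 WT mice (0.09, standard error 0.22). Rfc2 was at −0.12 and Rfc3, at background level, at −0.23.

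**Figure D4:**
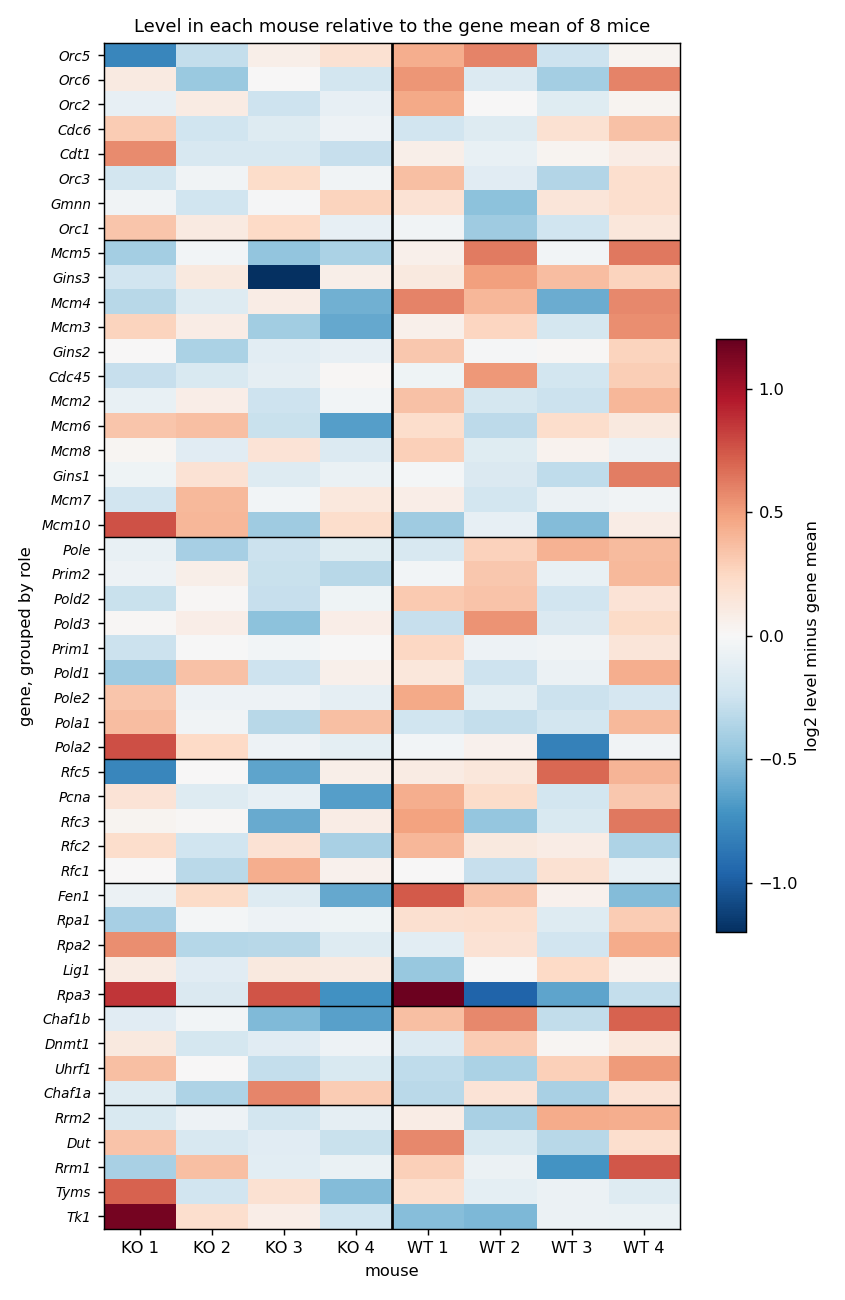
Log2 level of each replication gene (y axis, by role) in each mouse (x axis) minus that gene's mean over 8 mice, in color from −1.2 (blue) to 1.2 (red), with Fzd9 KO mice left of the black line. WT mouse 1 is above the gene mean for 32 genes and WT mouse 4 for 38, WT mouse 3 for 16, and KO mouse 1 is high for Tk1, Tyms, Pola2 and Mcm10.

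The genes for single-strand binding and Okazaki fragments, 5 in all, had 3 negative values, no call and a median of −0.13. Rpa1, the large subunit of replication protein A, which coats unwound DNA, was at −0.27 (standard error 0.19), and Rpa2 at −0.13 (0.26). Rpa3, the small subunit, spread most of all, with 6.35, 5.32, 6.25 and 4.76 in Fzd9 KO mice, against 6.67, 4.53, 4.86 and 5.20 in Fzd9 WT mice (0.35, standard error 0.50), and its other probe set gave −0.19. Lig1, the ligase that seals Okazaki fragments, had 5.26, 5.03, 5.29 and 5.28 in Fzd9 KO mice, against 4.71, 5.16, 5.41 and 5.20 in Fzd9 WT mice (0.09, standard error 0.21). The flap nuclease gene Fen1 was at −0.31 (standard error 0.30) at background level, and its other probe set gave 0.27.

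Among the 4 genes that copy chromatin and methylation, Chaf1b fell and 3 were not called, with a median of −0.10. Chaf1a, the large subunit of the same chaperone, was at 0.18 (standard error 0.26). Uhrf1, which reads DNA methylated on the old strand only behind the fork, had 5.01, 4.65, 4.36 and 4.47 in Fzd9 KO mice, against 4.34, 4.27, 4.93 and 5.15 in Fzd9 WT mice (−0.05, standard error 0.26). The genotypes overlapped throughout. Dnmt1, the methyltransferase that Uhrf1 recruits, was at −0.15 (standard error 0.19).

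Nucleotide supply, 5 genes, had 3 negative values, no call and a median of −0.13. Tk1, the thymidine kinase of S phase, had the largest positive value of the whole set, with levels of 5.40, 4.44, 4.33 and 4.01 in Fzd9 KO mice, against 3.74, 3.70, 4.18 and 4.16 in Fzd9 WT mice. KO mouse 1 was far above the rest. The log2 fold change of 0.60 was not past the threshold (standard error 0.30, limma unadjusted p = 0.0765) and was 0.32 without KO mouse 1 and 0.78, called higher, without KO mouse 4. Tyms, thymidylate synthase, had 5.75, 4.81, 5.23 and 4.52 in Fzd9 KO mice, against 5.24, 4.93, 4.97 and 4.89 in Fzd9 WT mice (0.07, standard error 0.27), and was at −0.15 without KO mouse 1. The median of this role was 0.04 without WT mouse 1 and 0.03 without WT mouse 4. The ribonucleotide reductase subunits were at −0.13 (Rrm1) and −0.29 (Rrm2), and the dUTPase gene Dut was at −0.13.

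Taken per mouse, the mean level over the 48 genes was 4.43, 4.33, 4.24 and 4.23 in Fzd9 KO mice, against 4.52, 4.37, 4.26 and 4.60 in Fzd9 WT mice. The genotype means were 4.31 ± 0.09 in Fzd9 KO and 4.44 ± 0.15 in Fzd9 WT (SD, n = 4 each). The ranges overlapped, since WT mice 1 and 4 lay above all Fzd9 KO mice while WT mouse 3 lay with KO mice 3 and 4. Among the 8 mice, a Fzd9 KO mouse had the highest level of 12 genes and a Fzd9 WT mouse that of 36, and WT mouse 4 alone held 14 and WT mouse 1 another 12. A Fzd9 KO mouse had the lowest level of 31 genes and a Fzd9 WT mouse that of 17, of which WT mouse 3 held 10. Fewer replicating cells and less of these RNAs per cell cannot be told apart in RNA from whole islets.

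Genes around the replication machinery were read as a setting for these values. None of 31 further replication genes was called (median −0.05, 17 negative), and limma gave none an unadjusted p under 0.05. That median ran from −0.12 without WT mouse 3 to 0.03 without WT mouse 4, and it was also positive without KO mouse 1 (0.01) or KO mouse 4 (0.0030). Topbp1, which helps load Cdc45, was the 1 gene there with all Fzd9 KO mice above all Fzd9 WT mice, at 5.56, 5.32, 5.17 and 5.13 in Fzd9 KO mice, against 4.99, 4.90, 4.19 and 5.12 in Fzd9 WT mice (0.49, standard error 0.24, limma unadjusted p = 0.0709). KO mouse 4 lay only just above WT mouse 4. Topbp1 was called higher after quantile normalization (0.56), after cyclic loess (0.55) and without WT mouse 4 (0.60). It was at 0.29 without WT mouse 3 and at 0.20 without WT mouse 3 and KO mouse 1, not called in either. It was named after its values were seen. None of 22 further nucleotide synthesis genes was called or had an unadjusted p under 0.05, with 18 negative and a median of −0.20 (between −0.24 and −0.15 under the other scalings). Without WT mouse 1 the median was −0.05, with 14 negative. In that list WT mouse 1 stood highest, with a mean level of 6.14, and the Fzd9 KO mice ranged from 5.50 to 5.67.

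Of 21 E2F and G1/S regulators, 1 fell (4.76%, against 1.17% of all genes) and none was called higher (1.28% of all genes). The median was 0.03 (−0.0015 after centring each array, and −0.06 to 0.08 with 1 mouse left out). The gene that fell was Rbl1, which encodes p107, a pocket protein that represses E2F targets and is itself an E2F target. Its levels were 3.91, 4.48, 3.79 and 3.59 in Fzd9 KO mice, against 4.69, 4.59, 4.66 and 4.20 in Fzd9 WT mice. Only KO mouse 2 and WT mouse 4 were out of order (−0.59, standard error 0.24, limma unadjusted p = 0.0325). Its call was lost without KO mouse 1 (−0.58), KO mouse 3 (−0.54), KO mouse 4 (−0.48), WT mouse 1 (−0.54), WT mouse 2 (−0.58) or WT mouse 3 (−0.55). E2f1, an activator of S-phase genes, was at 0.11 (standard error 0.17) and Ccne1, cyclin E1, at 0.21 (0.25).

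None of 24 mitosis genes was called or had an unadjusted p under 0.05. Their median was 0.12 with 9 negative, and WT mouse 4 had the highest level of 15 of them, as it had of 14 of the replication genes. Without WT mouse 4 the mitosis median was 0.30 with 4 negative, and without KO mouse 2 it was −0.0038 with 12 negative. The mean level over the mitosis genes was 4.94 in WT mouse 4, 4.04 to 4.26 in the other Fzd9 WT mice and 4.13 to 4.68 in Fzd9 KO mice. Mki67, the gene of the proliferation marker Ki67, was at 0.37 (standard error 0.31), and at 0.65 and called higher without WT mouse 4. It was not called without WT mouse 3 (0.18), with array weights (0.17) or without WT mouse 3 and KO mouse 1 (0.06). In the same list, Birc5 was called lower without KO mouse 2 and Nusap1 higher without KO mouse 3. Top2a, a topoisomerase of dividing cells, was at −0.01 (0.28). The difference between the replication and mitosis genes was not tested.

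The 30 histone genes of the replication-dependent clusters gave no call and no unadjusted p under 0.05, with 22 negative and a median of −0.22. Their mean level per mouse was 2.89 to 3.04 in Fzd9 KO and 3.07 to 3.29 in Fzd9 WT mice, without overlap but at background level, as only 6 of the 30 were above the gauge. Many of these genes are near-identical copies that share probes, so values of single ones are uncertain.

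**Figure D5:**
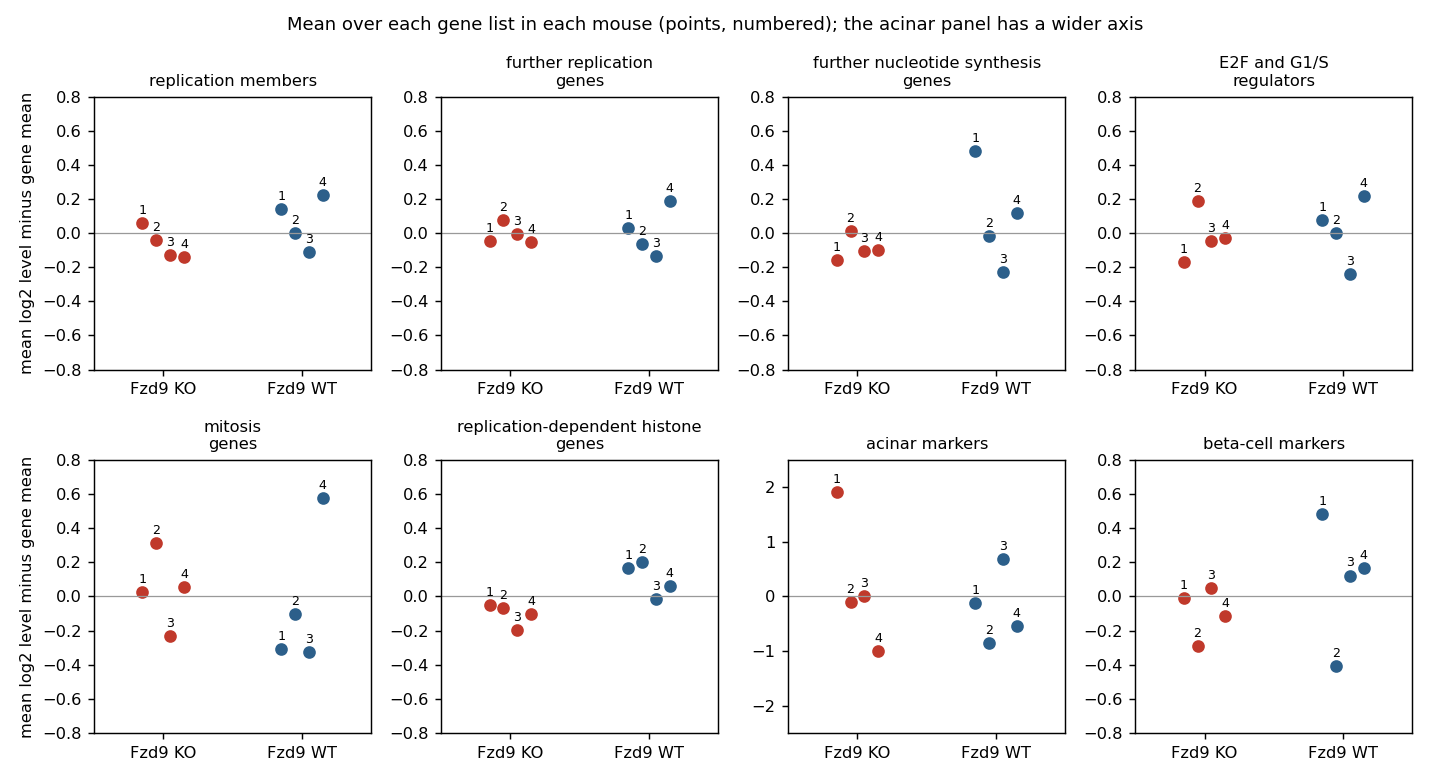
Mean log2 level over each gene list minus the gene means (y axis), Fzd9 KO left and Fzd9 WT right in each panel, with 1 point per mouse and its number. The acinar panel has a wider axis. The ranges are apart for the histone genes alone, WT mouse 4 stands out for mitosis genes, and KO mouse 1 and WT mouse 3 stand out for acinar markers.

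Some arrays stood apart. KO mouse 1 and WT mouse 3 had the lowest mean correlation with the other arrays (0.893 and 0.897, against 0.917 to 0.926 for the rest), and array medians ran from 2.90 to 3.17. The same mice had the most signal of exocrine acinar cells, the tissue around islets. Over 21 of 25 acinar markers measured, of which 15 were above the gauge, the mean level reached 6.68 in KO mouse 1 beside 3.78 to 4.78 for the remaining Fzd9 KO mice, against 5.46 in WT mouse 3 beside 3.91 to 4.65 for the remaining Fzd9 WT mice. The part of acinar RNA in the replication values was not tested. Without KO mouse 1 and WT mouse 3, 4 replication genes were called lower (Mcm5, Mcm4, Chaf1b and Pcna), none was called higher and 38 of 48 were negative, with a median of −0.24. Of all 22180 genes, 330 were called lower in that fit (259 with all mice), 359 higher (284) and 11028 were negative (11091). Pcna was then at −0.63, and Rfc5 at −0.40 was not called.

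Markers of β-cells were read in every mouse. Of 9 β-cell markers measured, 8 were above the gauge (all but Ucn3), with a mean level of 6.68 to 7.02 in Fzd9 KO and 6.56 to 7.45 in Fzd9 WT mice, and Iapp, which encodes the β-cell hormone amylin, had a mean of 10.6 in Fzd9 KO and 10.7 in Fzd9 WT islets. In each marker list (β-cell, other endocrine, acinar, duct, endothelial, stromal, leukocyte and mast cell) the Fzd9 KO and Fzd9 WT ranges of the mean level overlapped, as they did for the replication genes. The median log2 fold change was −0.20 for β-cell markers (8 of 9 negative), −0.28 for other endocrine markers (5 of 6) and −0.25 for stromal markers (8 of 9), beside −0.13 for the replication genes. It was 0.40 for acinar markers (18 of 21 positive) and 0.31 for endothelial markers (8 of 10 positive). It was −0.09 for duct, −0.05 for leukocyte and 0.12 for mast cell markers. With 1 mouse left out, the acinar median ran from −0.10 (without KO mouse 1, 15 negative) to 0.83 (without KO mouse 4). The endothelial median then ran from 0.05 (without WT mouse 4, 5 negative) to 0.62 (without WT mouse 2). The stromal median ran from −0.48 (without WT mouse 4) to 0.12 (without WT mouse 2), and the β-cell median from −0.39 (without WT mouse 2) to −0.04 (without WT mouse 1). The part of these markers in the replication values was not tested. Of these markers only the endothelial gene Vwf was called, opposite in sign to most of its list. It had 2.85, 3.01, 2.43 and 2.71 in Fzd9 KO mice, against 3.94, 4.13, 3.00 and 2.87 in Fzd9 WT mice (−0.74, standard error 0.31), and its call was lost without KO mouse 1 (−0.77), KO mouse 3 (−0.63), KO mouse 4 (−0.72), WT mouse 1 (−0.58) or WT mouse 2 (−0.52). Vwf was not called either when limma was replaced by a general test for comparing groups from the methods, which name no test for the arrays. Fzd9 itself was read near background in both genotypes, at 2.68, 2.76, 2.65 and 2.01 in KO mice 1 to 4 and 3.44, 1.97, 2.78 and 3.31 in WT mice 1 to 4, without a call (−0.35, standard error 0.34). Where its probes lie relative to the deleted sequence was not stated, so this reading does not check the genotype.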

How the data were processed

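RNA from the islets of 8 mice (4 Fzd9 KO, 4 Fzd9 WT), 1 array each, was analysed from the value table that the authors deposited. The deposited values are log2 levels that RMA gave, and the submitters' processing notes list RMA and Partek. Versions and settings are not given in the sources used here. No normalization was added. The number of arrays limits the precision, and p-values measure the spread between these mice. Of 41345 probe sets, 23521 had exactly 1 gene symbol (updated through Entrez ID), 1820 several and 16004 none here. Only those with 1 were named. Fzd9 KO was compared with Fzd9 WT by limma (version 3.58.1, R 4.3.3) on all probe sets, without covariates. No test is named for the arrays in the methods, which list a t-test among the general tests for comparing groups. Only the fit was tested on simulated data, with added changes larger than any difference of the replication genes.

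Members, lists and tests were chosen with earlier results of these data known. By rule, values in every mouse were printed for genes called, genes without overlap, Pold2, Mcm5, Pcna, and the largest and smallest differences in each role. Of other lists, genes called were named. Some genes of those lists that the main limma fit did not call, among them E2f1, Ccne1, Mki67, Top2a, Clspn and Iapp, were named outside this rule. Mcm4, Topbp1 and Fzd9 were added after their values were seen. Alternatives were quantile normalization, median centring, cyclic loess, limma with a trend, robust or with array weights, the methods' t-test, bright probe sets only, probe sets with 1 symbol only, each gene's mean over its probe sets, the mouse number as a block, and leaving out each mouse, or KO mouse 1 and WT mouse 3 together. Mouse numbers recur in both genotypes, but nothing ties equal numbers to 1 litter or batch. Promoter windows came from RefSeq (GRCm38.p6). Experiments by qRT-PCR and immunofluorescence were not analysed here.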

Additional observations from a re-analysis of the deposited data

Results flagged for a closer look

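In 12 of the 98 groups of 4 mice formed by the replication genes and Rbl1, 1 mouse lay far from the others (by Dixon's limit on its gap to the nearest, as a share of the group's range). Chance gives 4.9 at 1 in 20, and the genes share the same mice and are not independent. The causes were not tested.

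KO mouse 1 gave 4 of them. It was high for Cdt1, at 4.16 beside 3.32 to 3.40 in the other Fzd9 KO mice, and for Pole2, at 2.75 beside 2.31 to 2.35. It was low for Prim1, at 2.97 beside 3.19 to 3.22, and for Rpa1, at 4.63 beside 4.96 to 4.996. KO mouse 3 was low for Pold3, at 4.85 beside 5.35 to 5.41, and for Rfc3, at 2.39 beside 3.01 to 3.08. KO mouse 2 was low for Lig1, at 5.03 beside 5.26 to 5.29.

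In Fzd9 WT islets, WT mouse 2 was low for Gmnn, at 3.44 beside 4.07 to 4.14, and for Mcm6, at 4.54 beside 4.98 to 5.06. WT mouse 3 was low for Mcm4, at 3.97 beside 4.96 to 5.16, and for Pola2, at 4.37 beside 5.14 to 5.23. WT mouse 4 was high for Pola1, at 5.42 beside 4.74 to 4.81.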

How the results depend on the processing

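The median of the replication genes stayed negative under every alternative run, between −0.24 (without KO mouse 1 and WT mouse 3) and −0.09. The number called lower was 5 with array weights and 5 with the methods' t-test, and 0 to 4 with 1 mouse left out, while the number called higher was 0 with both and 0 to 1 with 1 mouse left out. Over all 22180 genes, 259 were called lower in the main limma fit, 319 with array weights and 350 with that t-test. Higher calls there were 284, 353 and 421. With 1 mouse left out, 198 to 432 of all genes were called lower and 205 to 383 higher. In the other lists, 1 further replication gene was called higher under quantile normalization and cyclic loess (Topbp1) and 1 without both mice (Clspn), and 2 further nucleotide synthesis genes were called lower without both mice. Rbl1 lost its call (0 E2F and G1/S regulators lower) with array weights and without both mice. The histone list had 1 gene called lower with the t-test, with 1-symbol probe sets only, with the mean of probe sets and with the block. With 1 mouse left out, numbers called lower were 0 to 1 for further replication, further nucleotide synthesis, E2F and mitosis genes and 0 to 2 for histone genes, and numbers called higher were 0 to 1 for further replication and mitosis genes. The mean of KO mouse 1 over the replication genes, relative to the gene means, was 0.06 and became −0.0668 after median centring.

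Signs turned for 15 of the 48 replication genes under some alternative, none of them called before or after, and 5 of these did so with no single mouse left out. Orc3 was at 0.0097 after quantile normalization and 0.019 after cyclic loess. Gmnn was at 0.00064 after quantile normalization, 0.014 after cyclic loess, 0.023 with array weights and 0.044 without both mice. Pole2 was at −0.12, Rpa3 at −0.0247 and Tyms at −0.17 without both mice, and Tyms at −0.0068 with array weights. Cdc6, Cdt1, Dut, Mcm6, Mcm8 and Rrm1 turned only with 1 mouse left out. Of the genes given in every mouse, with 1 mouse left out, Gmnn ranged from −0.18 to 0.0629, Gins1 from −0.17 to 0.14, Pole2 from −0.046 to 0.22, Rfc1 from −0.0444 to 0.21, Lig1 from −0.0445 to 0.19, Uhrf1 from −0.19 to 0.11 and Tyms from −0.15 to 0.25. Over all probe sets, 658 were called lower and 786 higher as deposited, 796 and 726 after quantile normalization, 773 and 631 after median centring, and 799 and 735 after cyclic loess.

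Deviations of equally numbered mice correlated at −0.10, 0.02, 0.07 and 0.24, so the numbers were not taken as a pairing. With the mouse number as a replicate block, the same 3 replication genes were called lower, 0 higher, and the median was −0.13. Dim genes limit the reading, since 33 of 48 were above the gauge in both genotypes. The causes of these changes were not tested.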
